A study of Mus musculus with 22 samples.

Results

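Sox5, Sox6, Sox9, Wwp2, Nkx3-2 and Trps1 are 6 regulators of chondrocyte transcription, and they were followed here in forelimbs of mouse embryos with and without Chsy1. Chsy1 encodes chondroitin sulfate synthase 1, an enzyme that lengthens the chondroitin sulfate chains of proteoglycans such as aggrecan. The members were all probes of the array, other than control spots, that carry the name of one of these genes, an older name of it or its RefSeq accession. This gave 23 of 41174 probes: 4 for Sox5, 6 for Sox6, 3 for Sox9, 5 for Wwp2, 2 for Nkx3-2 (named Bapx1 on the array) and 3 for Trps1. Of these, 19 gave a signal well above background on at least 9 arrays and were tested, among 27782 tested probes in all. In the single comparison 13 Chsy1 knockout samples stand against 9 wild-type samples, all of strain 129 at embryonic day 13.5. It asks how the regulators differ when the enzyme is missing. The labels name no allele, promoter or Cre beyond the knockout, and do not say whether a sample is 1 embryo or a pool. The p-values therefore measure only the spread between these samples.

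Sox9 is the transcription factor that chondrocytes need from the first condensation of mesenchyme onwards, and it acts on enhancers of cartilage matrix genes such as Col2a1 and Acan. Sox5 and Sox6 are close relatives that lack a transactivation domain of their own and bind beside Sox9, so the 3 are called the Sox trio. Nkx3-2 is a homeodomain repressor that favours the chondrocyte fate and holds back hypertrophy. Trps1 is an atypical GATA-type zinc finger repressor of the growth plate. Wwp2 is a ubiquitin ligase of the Nedd4 family that binds Sox9, and an intron of its gene holds the cartilage microRNA miR-140. At this stage the limb skeleton is a cartilage template inside a limb that also holds muscle, vessels, nerve, skin and undifferentiated mesenchyme.

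Limb RNA (Cy5) shared each two-colour array with a universal mouse reference RNA (Cy3). The values are log2 ratios, limb over reference, of single probes, and every difference is knockout minus wild type on that scale. No dyes were swapped. A ratio depends on the reference as well as on the limb, so ratios of different probes are not levels that can be ranked against each other. Of the 43379 spots that are not controls, 27214 to 30599 lay well above background in Cy5, and none was saturated. Precision is limited by how many arrays there are. The Chsy1 probe averaged -4.38 ± 1.39 (SD, n = 13) in knockout and 1.73 ± 0.28 (SD, n = 9) in wild type, a difference of -6.11 (adjusted p = 1.71e-08, limma). The array labelled Chsy1 knockout 1 stood at 0.15 for this probe, while the other 12 knockout arrays lay between -5.12 and -4.05 and the wild-type arrays between 1.28 and 2.02, so its label is not borne out by its Chsy1 value. Tbx5, which marks the forelimb, averaged 2.41 ± 0.25 in knockout and 2.20 ± 0.56 in wild type, but the hindlimb factor Pitx1 stood at 5.45 ± 0.15 in knockout and 5.64 ± 0.27 in wild type. Tbx4, the other hindlimb factor, gave a dimmer signal and stood at 0.71 ± 0.20 in knockout and 0.61 ± 0.27 in wild type. Tbx5 was thus above the reference in samples labelled forelimb, but the Pitx1 probe was far above it as well. The median Cy5 signal of the Pitx1 probe was 70811 in knockout and 59776 in wild type, and that of the Tbx5 probe 690 and 563. These 3 probes thus do not settle the forelimb label. All 6 slides held both genotypes, but the positions on a slide were unbalanced: knockout arrays lay at positions 2 (3 arrays), 3 (6) and 4 (4), wild-type arrays at positions 1 (6) and 2 (3). One wild-type array, wild type 1, lay below the other 8 for most marker lists, by 1.42 for 6 chondrocyte markers, 1.33 for 6 endothelial markers and 1.25 for Tbx5, and by less for tendon, muscle and nerve.

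None of the 19 tested probes of the 6 regulators passed the threshold of an adjusted p of 0.05, against 4 of 27782 probes (0.0144%) on the whole array. Their adjusted p-values lay between 0.96 and 1.00. At an unadjusted p of 0.05, 1 member probe passed, a Sox5 probe that was higher in knockout. Of all tested probes 4.79% passed in this way, 1.29% higher and 3.51% lower in knockout. The 2 genotypes overlapped on all 19 probes, and they were apart on 0.0036% of all tested probes. The difference was above 0 for 18 of the 19 probes, with a median of 0.088, against 48% of all tested probes and a median of -0.0038. The 19 probes come from 6 genes and several go up and down together across arrays, so they are not 19 separate observations. The 95% interval included 0 for 18 probes and lay within 1.5-fold in either direction for 17. The positive sign of most differences depended on which arrays were compared. With position as a term, which leaves only position 2 to compare the genotypes, 5 of the 19 probes were higher in knockout. Position and the smaller set of arrays cannot be told apart here. Position 2 holds 3 arrays of each genotype, among them the array labelled Chsy1 knockout 1. Without that array 9 of the 19 were higher there, and 4 probes turned in sign, so the values within position 2 rest in part on it. The sign also moved with 1 array: without wild type 1, 15 probes were higher in knockout, and without the array labelled Chsy1 knockout 1 all 19 were. With the scanner software's ratio, or relative to the all-probe shift of 0.21 under median centring, 15 were higher. In whole limbs, a different number of chondrocytes and a different amount of RNA per chondrocyte cannot be told apart.

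**Figure D1:**
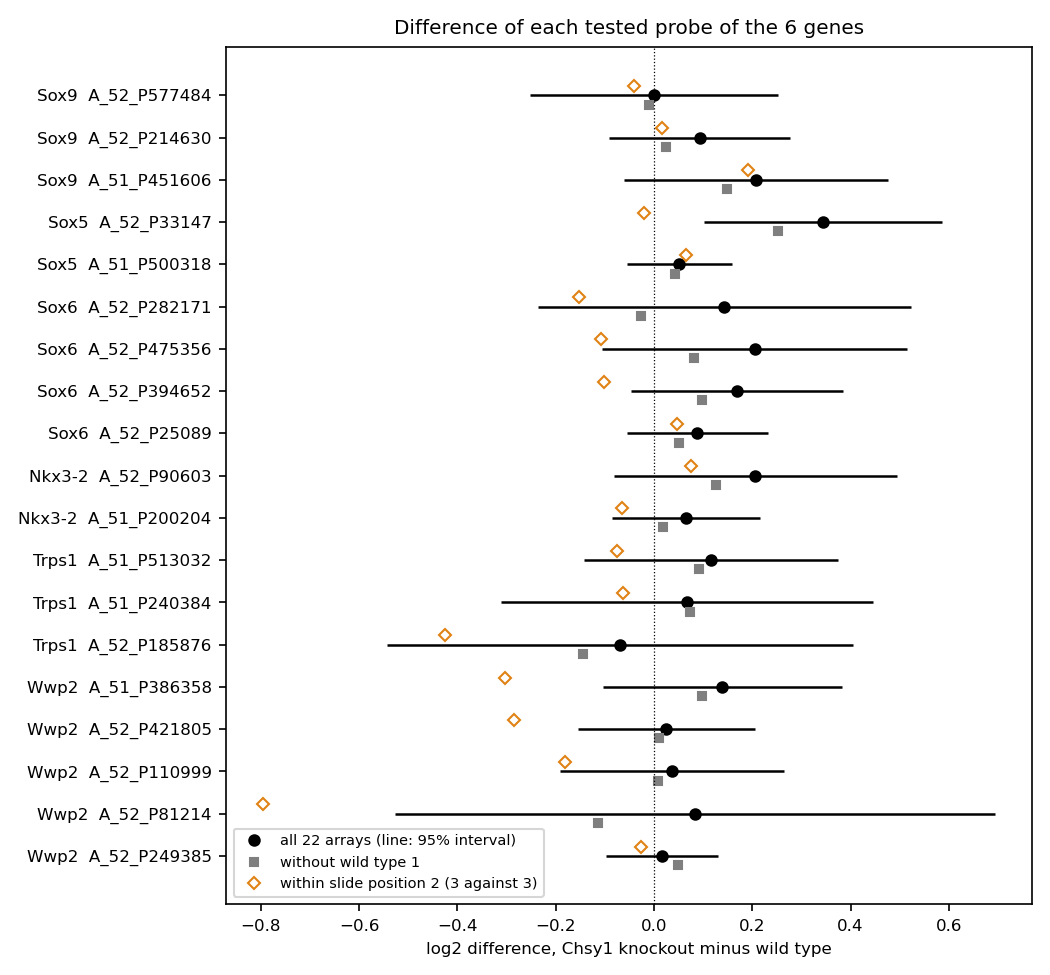
Difference of each tested probe of the 6 genes on the log2 scale, Chsy1 knockout minus wild type, with its 95% interval over all 22 arrays (black), the value without wild type 1 (grey squares) and the value within slide position 2, 3 knockout against 3 wild-type arrays (open diamonds). Of the 19 intervals, 18 include 0, and the values within position 2 lie mostly left of the values over all arrays. Of the values within position 2, 5 lie above 0, and 9 would without the array labelled Chsy1 knockout 1, which is among its 3 knockout arrays.

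Sequences upstream of the genes are given for Sox6 and for the 2 members whose ratios went up and down with it across arrays by both measures used below, Sox5 and Nkx3-2, as the 250 bases before a RefSeq transcript start on GRCm38.p6, read 5′ to 3′ on the strand of the gene. Capitals mark the core letters of 2 of the 3 motifs searched on both strands: AACAAT for SOX factors and TAAGTG for NKX3 factors, while AGATAA for GATA-type factors, to which Trps1 belongs, was not present in these 4 windows. RefSeq lists 6 starts for Sox6. Starts 1, 4 and 5 hold motif matches, and of these only starts 1 and 5 are shown. Start 4, the only Sox6 start with AGATAA, is not shown and also holds TAAGTG once. Starts 2, 3 and 6 hold none of the 3 motifs, so the windows shown do not stand for all 6 starts.
Sox5, chr6:143947107-143947356, minus strand: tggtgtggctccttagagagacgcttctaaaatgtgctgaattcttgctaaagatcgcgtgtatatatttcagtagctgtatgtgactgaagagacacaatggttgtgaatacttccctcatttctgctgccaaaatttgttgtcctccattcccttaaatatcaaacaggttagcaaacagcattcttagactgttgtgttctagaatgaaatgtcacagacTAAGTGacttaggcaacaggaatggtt
Sox6 start 1, chr7:116038745-116038994, minus strand: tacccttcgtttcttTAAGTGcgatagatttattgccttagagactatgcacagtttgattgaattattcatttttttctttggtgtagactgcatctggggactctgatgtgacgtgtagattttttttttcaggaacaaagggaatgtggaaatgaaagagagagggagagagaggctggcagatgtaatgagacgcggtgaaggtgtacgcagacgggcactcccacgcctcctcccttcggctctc
Sox6 start 5, chr7:115824711-115824960, minus strand: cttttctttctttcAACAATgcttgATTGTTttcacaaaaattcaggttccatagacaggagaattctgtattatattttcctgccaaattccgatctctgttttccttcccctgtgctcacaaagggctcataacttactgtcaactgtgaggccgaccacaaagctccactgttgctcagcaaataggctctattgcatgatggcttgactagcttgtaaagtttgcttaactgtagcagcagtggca
Nkx3-2, chr5:41764221-41764470, minus strand: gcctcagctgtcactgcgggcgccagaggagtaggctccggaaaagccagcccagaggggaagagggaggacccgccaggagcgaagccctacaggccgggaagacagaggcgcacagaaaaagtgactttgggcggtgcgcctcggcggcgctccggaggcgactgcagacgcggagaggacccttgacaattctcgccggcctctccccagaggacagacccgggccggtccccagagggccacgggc
The Sox5 window and the window of Sox6 start 1 each hold TAAGTG once, and the window of Sox6 start 5 holds AACAAT once on each strand (ATTGTT marks the opposite one), with no overlap between the matches. Nkx3-2 holds none of the 3 motifs, and neither does Wwp2, which went with Sox5 and Trps1 across arrays and is not printed. Over all 32851 windows of this length, 9.42% hold AACAAT, 7.92% TAAGTG and 9.99% AGATAA, so single matches are frequent. A match describes letters, not a bound site. Sox9 and Trps1 had no entry in the table used.

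Sox9 was above the reference on all 3 of its probes in both genotypes, and none of them gave a difference past the threshold. The brightest probe, A_52_P577484 (chromosome 11, 112601784 to 112601843, plus strand, on the mm8 coordinates of the files), ranged from 2.64 to 3.61 with a median of 3.06 in knockout, against 2.76 to 3.68 with a median of 3.03 in wild type. The groups overlapped over nearly their whole range, and the difference was 0.00085 (SE 0.12, 95% interval -0.25 to 0.25). In linear terms the sample stood 8.68-fold above the reference in knockout and 8.68-fold in wild type. The most downstream Sox9 probe, A_52_P214630, is printed 10 times on each array. Its 10 spots had a median SD of 0.032 within an array, whereas the SD between arrays was 0.18 in knockout and 0.24 in wild type. The spread of this probe thus lay mostly between arrays. It averaged 3.28 ± 0.18 in knockout and 3.18 ± 0.24 in wild type, a difference of 0.093 (95% interval -0.090 to 0.28). The most upstream probe, A_51_P451606, whose coordinates in the files span 853 bases, averaged 1.22 ± 0.26 in knockout and 1.01 ± 0.39 in wild type. Its difference was 0.21 (95% interval -0.060 to 0.48), with 12 of 13 knockout arrays above the wild-type median. The 3 Sox9 probes gave differences of 0.00085, 0.093 and 0.21, but no pair of them was shown to disagree: the difference between the upstream and the brightest probe had an exact permutation p of 0.32. Leaving out wild type 1 brought the middle value to 0.025.

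**Figure D2:**
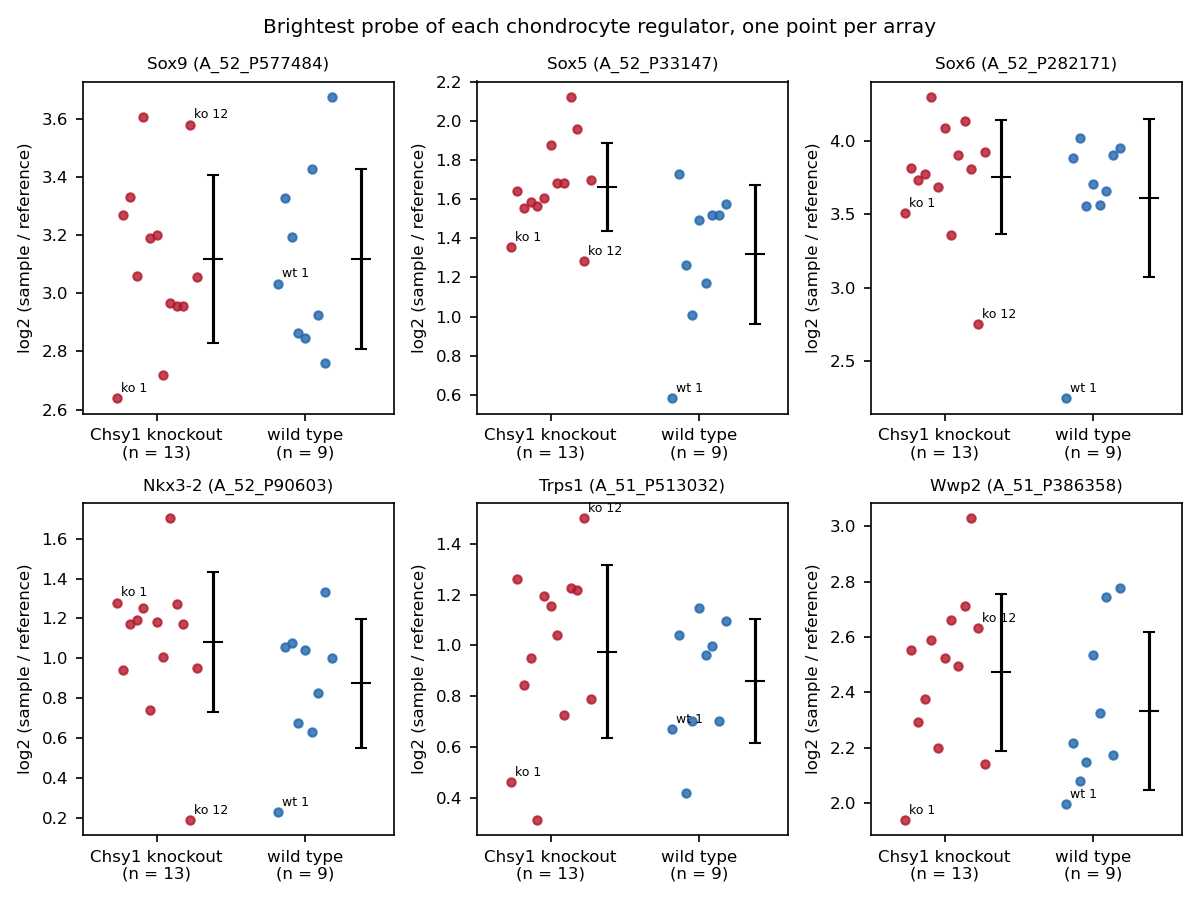
Log2 ratio of sample to reference for the brightest probe of each gene, 1 point per array, 13 Chsy1 knockout (left) and 9 wild type (right), with the mean and SD beside each group. The groups overlap in all 6 panels, and wild type 1 has the lowest wild-type value for Sox5, Sox6, Nkx3-2 and Wwp2.

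Sox5 gave the largest of the 19 differences, on 1 of its 2 tested probes. The probe A_52_P33147 (chromosome 6, 143786281 to 143786340, minus strand, mm8), which the array names A730017D01Rik, a synonym of Sox5 in RefSeq, ranged from 1.28 to 2.12 with a median of 1.64 in knockout, against 0.58 to 1.73 with a median of 1.49 in wild type. The groups overlapped, though 11 of 13 knockout arrays lay above the wild-type median. The mean was 1.66 ± 0.23 in knockout and 1.32 ± 0.35 in wild type, and the difference of 0.34 (SE 0.12, 95% interval 0.10 to 0.59) had an unadjusted p of 0.0073 and an adjusted p of 0.96 in limma. It did not pass. On each of the 6 slides the mean of the knockout arrays was higher, by 0.025 to 0.80, though single arrays overlapped on some slides. Knockout 12, at 1.28, lay below wild type 9 of its slide, at 1.57. Within position 2 the difference was -0.020, and 0.061 there without the array labelled Chsy1 knockout 1. Over all positions it was 0.25 without wild type 1 and 0.37 without the array labelled Chsy1 knockout 1. The second tested probe, A_51_P500318, upstream of the first, was dim. Its signal was well above background on 14 arrays in Cy5 and on 0 arrays in the Cy3 reference. The probe averaged 0.16 ± 0.10 in knockout and 0.11 ± 0.12 in wild type, a difference of 0.052 (95% interval -0.055 to 0.16). The 2 remaining Sox5 probes were well above background on 0 arrays and were not tested. The 2 tested probes differed in their response by -0.29 (exact permutation p = 0.023), the smallest p of the 13 probe pairs compared, with an adjusted p of 0.30. With the scanner software's own ratio, made without the offset used here, that value was 0.030, so its sign depended on how the intensities were processed.

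Sox6 was above the reference on all 4 tested probes in both genotypes, with no difference past the threshold. In the Cy3 reference, A_52_P282171 was well above background on 17 of the 22 arrays and A_52_P475356 on 1. A_52_P394652 and A_52_P25089 were so on 0 arrays. The ratios of these dimmer probes thus rest on a reference near background. The brightest, A_52_P282171 (chromosome 7, 115266015 to 115266074, minus strand, mm8), ranged from 2.75 to 4.30 with a median of 3.81 in knockout, against 2.25 to 4.02 with a median of 3.71 in wild type. Its lowest knockout value came from knockout 12 and its lowest wild-type value from wild type 1, and the remaining arrays of both genotypes overlapped. The difference was 0.14 (SE 0.18, 95% interval -0.24 to 0.52), and it was -0.027 without wild type 1. The probes A_52_P475356, A_52_P394652 and A_52_P25089 differed by 0.20, 0.17 and 0.088, and by 0.082, 0.097 and 0.050 without wild type 1. Within position 2, 3 of the 4 Sox6 differences were below 0, at -0.15, -0.11 and -0.10, and that of A_52_P25089 was 0.047. The 2 untested Sox6 probes were well above background on 5 arrays and on 0 arrays. The offset of 50 units draws ratios of dim probes towards 0. By the scanner software's ratio, which lacks it, the brightest Sox6 probe averaged 5.91 in knockout and 6.00 in wild type, and the sign of its difference turned.

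Nkx3-2 was measured by 2 probes that lie 0.17 kb apart. In the Cy3 reference, A_52_P90603 was well above background on 4 arrays and A_51_P200204 on 0, so their ratios rest on a reference near background. A_52_P90603 (chromosome 5, 42049579 to 42049638, minus strand, mm8) ranged from 0.19 to 1.70 with a median of 1.17 in knockout, against 0.23 to 1.33 with a median of 1.00 in wild type. The lowest array of each group was again knockout 12 and wild type 1. The difference was 0.21 (SE 0.14, 95% interval -0.081 to 0.49), and 0.13 without wild type 1. A_51_P200204 averaged 0.54 ± 0.14 in knockout and 0.47 ± 0.20 in wild type, a difference of 0.066 (95% interval -0.084 to 0.22), and 0.019 without wild type 1.

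Trps1 had 1 probe above the reference, 1 near it and 1 below it, and none differed past the threshold. The brightest, A_51_P513032 (chromosome 15, 50485341 to 50485400, minus strand, mm8), ranged from 0.31 to 1.502 with a median of 1.04 in knockout, against 0.42 to 1.15 with a median of 0.96 in wild type, a difference of 0.12 (95% interval -0.14 to 0.37). The wild-type values lay inside the knockout range. A_51_P240384 averaged 0.18 ± 0.45 in knockout and 0.11 ± 0.46 in wild type, a difference of 0.068. A_52_P185876, the most upstream, averaged -0.47 ± 0.64 in knockout and -0.40 ± 0.45 in wild type. Its difference of -0.069 (95% interval -0.54 to 0.40) was the only one of the 19 below 0, and the array labelled Chsy1 knockout 1 held its lowest value, 1.29 below the other knockout arrays.

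Wwp2 was measured by 5 probes over 100.2 kb, of which the 4 downstream probes were above the reference and the most upstream one below it. A_51_P386358 (chromosome 8, 110446270 to 110446329, plus strand, mm8) ranged from 1.94 to 3.03 with a median of 2.52 in knockout, against 2.00 to 2.78 with a median of 2.22 in wild type. The groups overlapped, with 10 of 13 knockout arrays above the wild-type median, and the difference was 0.14 (SE 0.12, 95% interval -0.10 to 0.38). A_52_P421805 and A_52_P110999 differed by 0.025 and 0.037. A_52_P81214 was the most variable of the 19 probes among wild-type arrays, at 1.96 ± 0.67 in knockout and 1.87 ± 0.83 in wild type, and its interval ran from -0.53 to 0.69. Without wild type 1 its difference was -0.11. The upstream probe A_52_P249385 averaged -0.25 ± 0.093 in knockout and -0.27 ± 0.15 in wild type, a difference of 0.017, and stood at -0.86 in knockout and -0.94 in wild type by the scanner software's ratio. Within position 2 all 5 Wwp2 differences were below 0, between -0.80 and -0.027, and between -0.76 and -0.052 without the array labelled Chsy1 knockout 1. miR-140 itself was not analysed here.

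**Figure D3:**
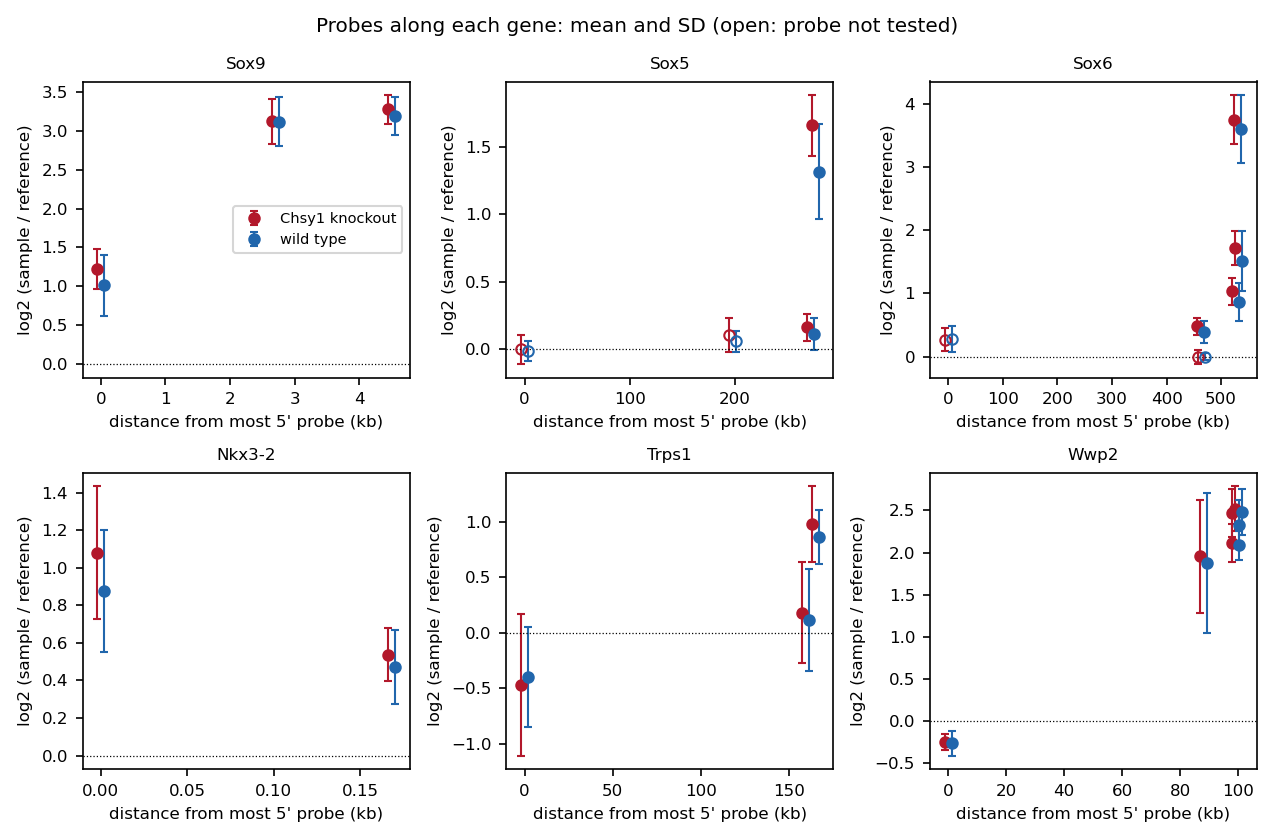
Mean and SD of the log2 ratio of sample to reference for all 23 probes, by distance in kb from the most upstream probe of the same gene, Chsy1 knockout (red) and wild type (blue) side by side. Open points are the 4 probes too dim to test. The upstream Wwp2 probe lies at -0.25 in knockout and -0.27 in wild type, and the 4 probes 88.0 to 100.2 kb downstream lie between 1.87 and 2.52.

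Whether probes of a gene disagreed about the knockout was tested on the per-array difference between each probe and the gene's brightest probe, for 13 pairs. No pair passed after adjustment. The exact permutation p-values, two-sided over 497420 splits of the arrays, ranged from 0.023 for Sox5 to 0.87 for Trps1, and after Benjamini-Hochberg adjustment from 0.30 to 0.87. A p that misses the threshold does not show that the probes respond alike.

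Across the 22 arrays, with each genotype's mean taken out, probes of a gene often went up and down together. Of 51 pairs of probes in all, 24 joined 2 probes of 1 gene, and 9 of these passed both by Pearson's r and by Spearman's rho (permutation tests within genotypes, adjusted over the 51 pairs). The share of passing pairs among all tested probes was not computed, here or for the pairs below. The 2 Nkx3-2 probes had an r of 0.86 (adjusted p = 0.0003) and a rho of 0.82, and without the 2 arrays farthest from the median, knockout 12 and wild type 1, the r was 0.70. The Sox6 probes A_52_P475356 and A_52_P394652 had an r of 0.92 and a rho of 0.79, and 0.82 without the same 2 arrays. The brightest Sox9 probe followed the 10-spot Sox9 probe, with an r of 0.59 and a rho of 0.68, but not the upstream one, with an r of -0.15 (permutation p = 0.51). The Trps1 probes A_51_P513032 and A_51_P240384 went in opposite directions with an r of -0.52 (adjusted p = 0.034), which rho did not pass at -0.43 (adjusted p = 0.13). The upstream Wwp2 probe passed with none of the other Wwp2 probes, with r from -0.16 to 0.068.

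Among the 15 pairs of the members' brightest probes, 4 passed by both measures. How often pairs of unrelated genes pass was not tested, so this count does not show a trait of the 6 genes. Genes outside the 6 reached an r of 0.85 to 0.95 with these probes, as the highest of 16164. Sox5 and Sox6 had an r of 0.76 (adjusted p = 0.0021) and a rho of 0.63 (adjusted p = 0.016), and the r was 0.57 without knockout 10 and wild type 1. The arrays left out were those farthest from the median on the first-named probe, here Sox5. Knockout 12, low on the Sox6 probe, thus stayed in, unlike in the next pair. Within slide positions 1, 2 and 3, each with 6 arrays, the r was 0.84, 0.90 and 0.073. Values within positions carry no test. Position 1 held only wild-type arrays and position 3 only knockout arrays, so position and genotype cannot be told apart in them. Sox6 and Nkx3-2 had an r of 0.77 (adjusted p = 0.0021) and a rho of 0.68, with 0.43 once knockout 12 and wild type 1 were left out, and 0.92, 0.28 and 0.41 within the 3 positions. Much of that relation rested on those 2 arrays. Sox5 and Wwp2 had an r of 0.54 and a rho of 0.56 (0.61, 0.82 and 0.28 within positions), and Wwp2 and Trps1 an r of 0.56 and a rho of 0.62. The last pair was at 0.82 and 0.89 in positions 1 and 2 but -0.44 in position 3. Slides held too few arrays for a value each. The brightest Sox9 probe passed with none of the other 5 genes, with r from -0.29 to 0.22. All arrays shared 1 reference RNA.

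The other 2 Sox9 probes gave another picture. They were set against the brightest probes of the other 5 members and of Col2a1 and Acan, a comparison of 14 pairs that was added after the data were seen, with p-values adjusted over them. By both measures 2 of the 14 passed, both with the upstream Sox9 probe A_51_P451606. With Nkx3-2 it had an r of 0.81 (permutation test, adjusted p = 7e-05) and a rho of 0.86 (adjusted p = 0.00014), an r of 0.67 without knockout 12 and wild type 1, and 0.90, 0.82 and 0.41 within positions 1, 2 and 3. With Sox6 it had an r of 0.75 (permutation test, adjusted p = 7e-05) and a rho of 0.72 (adjusted p = 0.00224), an r of 0.64 without the same 2 arrays, and 0.71, 0.12 and 0.98 within the 3 positions. The Nkx3-2 relation thus had the same sign in each position, and the Sox6 relation was near 0 in position 2. By Pearson's r alone 5 of the 14 passed, the remaining 3 being A_51_P451606 with Sox5 and the 10-spot probe A_52_P214630 with Sox6 and with Acan. For these 3 the r was 0.60, 0.65 and 0.63 and the rho 0.49, 0.48 and 0.48, with an adjusted p of 0.0934 each by rho (permutation tests). Without the 2 farthest arrays their r was 0.40, 0.31 and 0.26. Whether Sox9 went with the other members thus depended on which of its probes was read.

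**Figure D4:**
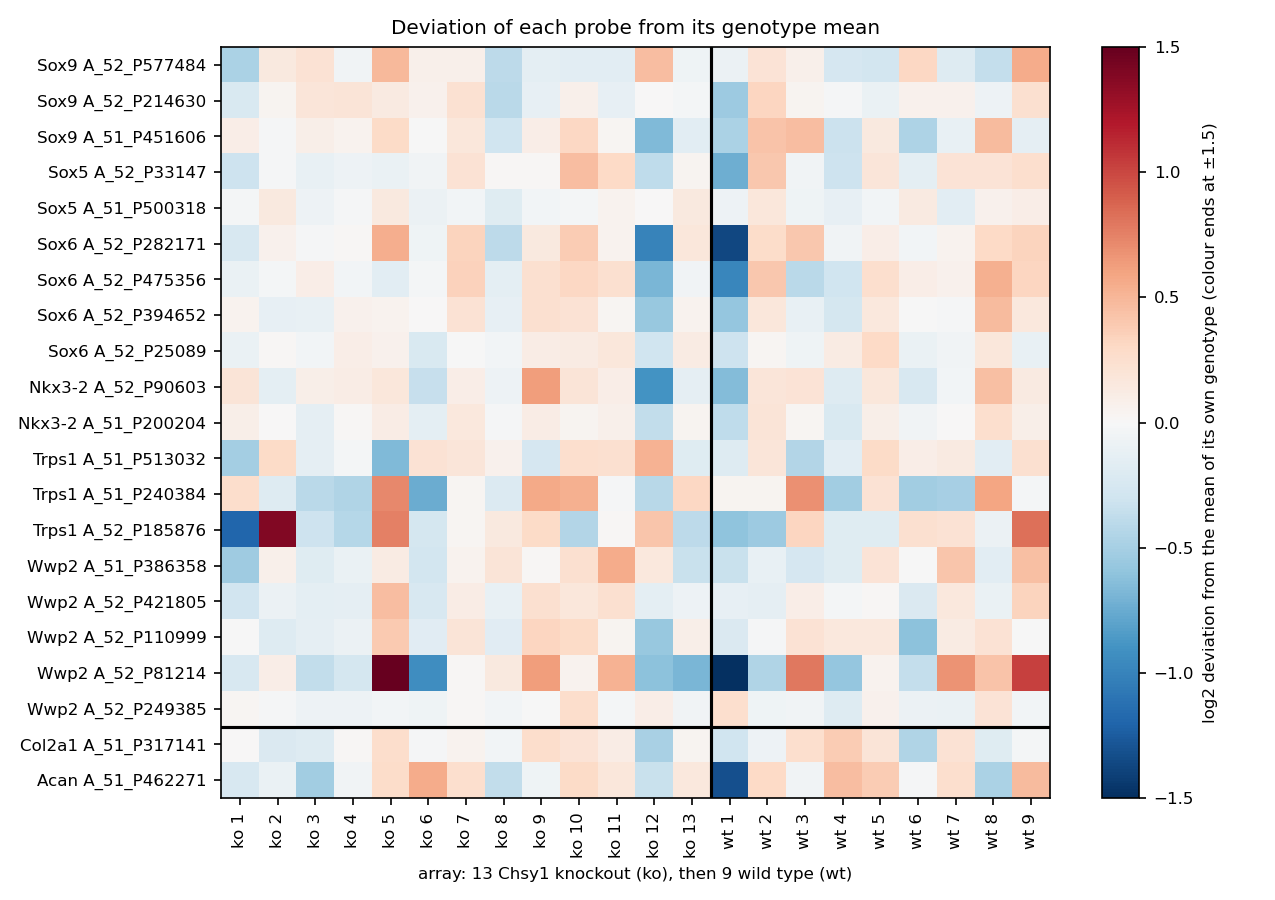
Deviation of each tested probe of the 6 genes, and of Col2a1 and Acan, from the mean of its own genotype on the log2 scale, with the 13 Chsy1 knockout arrays left of the line and the 9 wild-type arrays right of it. Wild type 1 and knockout 12 are low together for Sox5, Sox6 and Nkx3-2, with wild type 1 lying 1.53 and knockout 12 lying 1.08 below the others of their genotype on the brightest Sox6 probe.

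Col2a1 and Acan, which encode type II collagen and aggrecan and are direct targets of the trio, were set against the 6 brightest probes as well. By Pearson's r, 4 of these 12 pairs passed, and by both measures 0 did. Acan and Sox6 had an r of 0.69 (adjusted p = 0.019) but a rho of 0.38 (adjusted p = 0.17), and an r of 0.43 without knockout 3 and wild type 1. Col2a1 and Sox6 had an r of 0.57 (adjusted p = 0.023) and a rho of 0.47. The brightest Sox9 probe had an r of -0.36 with Col2a1 and 0.17 with Acan, and neither passed. The upstream Sox9 probe A_51_P451606 had an r of 0.49 with Col2a1 (permutation test, adjusted p = 0.074 over the 14 pairs).

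The cartilage genes bound or driven by the trio are 26 matrix, signalling and enzyme genes, all tested, of which 0 passed in either direction. They leaned lower in knockout, with 21 below 0 and 5 above and a median of -0.084. Over 16164 named genes 8508 lay below and 7656 above, with a median of -0.0056, and 4 passed. The list was chosen with earlier results of these data known, so its lean is a description and not a test. Epyc, a small proteoglycan of cartilage, had the smallest p of the list. It ranged from 2.10 to 3.74 with a median of 2.51 in knockout, against 1.35 to 4.63 with a median of 3.62 in wild type, and its difference was -0.83 (95% interval -1.41 to -0.25, adjusted p = 0.96 in limma). Matn1, a cartilage matrix protein, differed by -0.42, Acan by -0.22 and Col2a1 by -0.10, each with an interval that includes 0. Without wild type 1 the values were -1.09 for Epyc (95% interval -1.53 to -0.64), -0.63 for Matn1 (-0.90 to -0.36), -0.39 for Acan (-0.66 to -0.11) and -0.14 for Col2a1 (-0.35 to 0.072), with adjusted p-values of 0.16, 0.20, 1.00 and 1.00 in limma. The intervals of Matn1 and Acan then excluded 0, but neither passed. Wild type 1, low for chondrocyte markers, weighed on this list. Without it 25 of the 26 were lower in knockout, and none passed after adjustment. Their median was then -0.17, against -0.0076 over all tested probes in the same fit. Leaving out a wild-type array that is low for such genes raises their wild-type mean and so lowers the differences by itself. With position as a term 24 were lower, with a median of -0.26. The part of chondrocyte content in these values was not tested. The mean log2 ratio of 6 chondrocyte markers had a median of 3.20 (2.47 to 3.61) in knockout and 3.50 (2.15 to 4.05) in wild type. All 6 markers are among the 26 genes of the list, so they are not a separate measure of chondrocyte content.

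**Figure D5:**
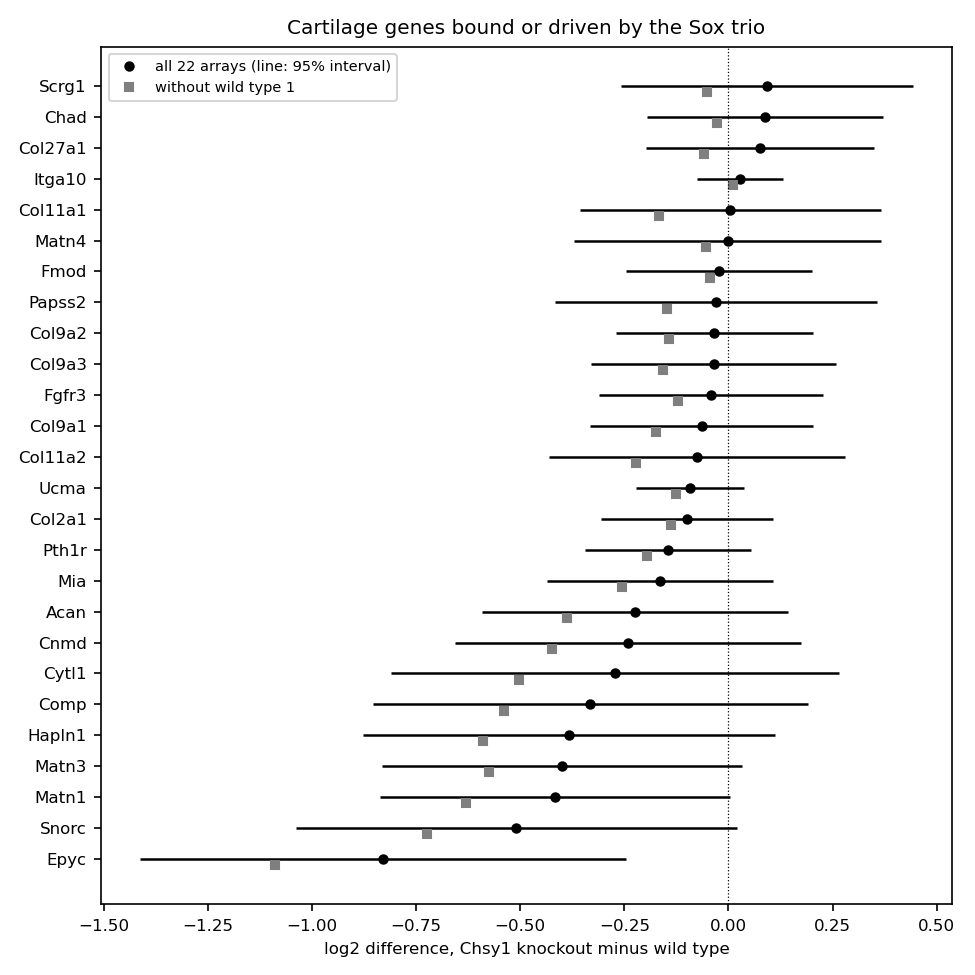
Difference of the 26 cartilage genes on the log2 scale, Chsy1 knockout minus wild type, with 95% intervals over all 22 arrays (black) and the value without wild type 1 (grey squares). Over all arrays 21 of 26 lie below 0, and 25 of 26 do without wild type 1.

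Relatives and partners of the members also gave 0 genes past the threshold. Over all 16164 tested named genes only 4 passed, so 0 in lists of this size says little about them. Of the 16164 genes 7656 were higher and 8508 lower in knockout, with a median of -0.0056. These lists too were chosen with earlier results of these data known. Of 13 tested genes among 15 other Sox genes, 9 were higher and 4 lower in knockout, with a median of 0.084, but the count turned to 4 higher and 9 lower without wild type 1 and to 5 higher and 8 lower with the scanner software's ratio. Sox2, a factor of progenitors and sensory epithelia, averaged 0.80 ± 0.17 in knockout and 0.56 ± 0.25 in wild type, a difference of 0.23 (95% interval 0.056 to 0.41, adjusted p = 0.96). Sox21, which is related to Sox2, differed by -0.20. Sox3 and Sox30 were not well above background on any array. Among 28 tested of 30 other transcription regulators of chondrocytes, 9 were higher and 19 lower, with a median of -0.021. The smallest p-values belonged to Runx3 and Mef2c, both factors of chondrocyte hypertrophy. Runx3 ranged from -0.44 to 0.18 with a median of -0.062 in knockout, against -0.29 to 0.69 with a median of 0.16 in wild type, a difference of -0.32 (95% interval -0.53 to -0.10). Mef2c averaged 1.06 ± 0.35 in knockout and 1.53 ± 0.58 in wild type, a difference of -0.47 (95% interval -0.85 to -0.093). Neither passed, with an adjusted p of 0.96 each.

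The Nedd4 family of ubiquitin ligases and adaptors, to which Wwp2 belongs, had 9 of 10 genes tested, with 8 higher and 1 lower in knockout and a median of 0.087. With position as a term the count was 4 higher and 5 lower. Over all 16164 tested named genes, 7656 were higher and 8508 lower without that term. Nedd4, the ligase that names the family, differed by 0.16 and Hecw2, a related ligase, by 0.10, each with an interval that includes 0. The GATA factors and genes tied to Trps1 had 12 of 13 tested, with 5 higher and 7 lower and a median of -0.020, but 7 higher and 5 lower with the scanner software's ratio. Zfpm2, a GATA cofactor, averaged -2.60 ± 0.17 in knockout and -2.27 ± 0.38 in wild type, a difference of -0.33 (95% interval -0.57 to -0.097). Hdac1, a histone deacetylase, differed by 0.16 (95% interval 0.019 to 0.29). Both had an adjusted p of 0.96.

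For each member the 3 named genes whose brightest probe had the highest Pearson r with the member's brightest probe, over 22 arrays with genotype means taken out, were Alk, Arnt2 and Frem2 for Sox5 (0.92 to 0.88), Cdh3, Dlx5 and Pde9a for Sox6 (0.95 to 0.94) and Gapvd1, Oxsr1 and Slc4a1ap for Sox9 (0.87 to 0.85). They were Ift172, Plxna3 and Dus3l for Wwp2 (0.93 to 0.92), Zfp467, Adcy3 and Magee2 for Nkx3-2 (0.93 to 0.92) and Nbea, Rabgap1l and Pdgfra for Trps1 (0.95 to 0.93). These are the highest of 16164 genes and carry no test. Without wild type 1 the values of Sox5 and Sox6 were lower, at 0.87 for Alk and 0.90 for Cdh3, and those of Trps1 stayed at 0.95 for Nbea. None of the 18 genes passed between the genotypes.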

How the data were processed

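Forelimb RNA of 13 Chsy1 knockout and 9 wild-type samples was compared, grouped and numbered as in the labels. Per the labels, RNA was amplified linearly into Cy5 cRNA and put on the array with a Cy3 reference. The submitters' processing notes name Agilent Feature Extraction 9.5 as the scanning software, and the headers version 9.5.3.1. Spot and background intensities are deposited uncorrected, and the deposited ratio is a log10 of processed Cy5 over Cy3, per the file headers; the deposited value table differed from it by 0 on each array, with column medians of 0. Flags are deposited as 0 or 1.

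Intensities were corrected with normexp (offset 50) and normalised by loess within arrays, with control and outlier spots at weight 0, and spots of a probe were averaged. A probe was tested where at least 0.5 of its spots were well above background in Cy5 on at least 9 arrays. The log2 ratios were computed from the deposited intensities, tested in R 4.3.3 (limma 3.58.1, lmFit and eBayes) and adjusted by Benjamini-Hochberg over 27782 probes, with 95% intervals. The fit was tested on simulated data. Probe pairs were compared by exact permutation, and correlations by 100000 permutations, with Python 3.11.15. Names came from RefSeq (GRCm38.p6), and probe coordinates are on mm8 as in the files. Lists took each gene's brightest probe. The 2 tested genes with the smallest p were named per list, besides Col2a1, Acan, all member probes and 3 pattern neighbours per member. The members and lists were chosen with earlier results of these data known. Same-numbered samples did not pair: correlations of their deviations lay between -0.28 and 0.50. Alternatives covered background, normalisation, Cy5 alone, filters, probe averaging, blocks, weights and leaving out arrays.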

Additional observations from a re-analysis of the deposited data

Results flagged for a closer look

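Wild type 1 stood apart from the other 8 wild-type arrays on 2 of the 25 probes examined. On the Sox6 probe A_52_P282171 its log2 ratio was 2.25, and the nearest wild-type array was at 3.55, a gap of 0.739 of the whole range. On the Sox9 probe A_52_P214630 it was 2.64, and the nearest was at 3.09, a gap of 0.514 of the range. Both exceed Dixon's 95% critical value for 9 samples, which chance passes in about 1 in 20 groups. With 25 probes examined, some flags can come by chance, and the share over all probes was not computed. The same array was low for most marker lists of limb tissues, and its part in these values was not tested. Without it the Sox6 difference was -0.027 and the Sox9 difference 0.025. The 13 knockout arrays are too many for this rule and were not examined by it.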

How the results depend on the processing

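Of 695 values of the member differences under other settings, 641 kept their sign and 54 reversed, and none passed the threshold (lowest adjusted p 0.119 in limma, with median centring). Of 312 values of the probe pair differences, 17 reversed and none passed (lowest adjusted p 0.0516, exact permutation). The cause of these reversals was not tested.

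With position as a block, 5 of 19 probes were higher in knockout, and 9 without the array labelled Chsy1 knockout 1. Leaving it out, a setting chosen after seeing the data, turned Sox5 A_52_P33147 to 0.061, Sox9 A_52_P577484 to 0.18 and Trps1 A_51_P513032 and A_52_P185876 to 0.12 and 0.15. With that array kept, the reversed differences were -0.020 for Sox5 A_52_P33147, -0.15, -0.11 and -0.10 for Sox6 A_52_P282171, A_52_P475356 and A_52_P394652, and -0.041 for Sox9 A_52_P577484. For Wwp2 they were -0.30, -0.28, -0.18, -0.80 and -0.027 (A_51_P386358, A_52_P421805, A_52_P110999, A_52_P81214 and A_52_P249385). Nkx3-2 A_51_P200204 was at -0.065, and Trps1 A_51_P513032 and A_51_P240384 at -0.075 and -0.063. Median centring moved the median of all probes by 0.21. Relative to it Sox5 A_51_P500318 was at -0.20, Sox6 A_52_P25089 at -0.18, Wwp2 A_52_P249385 at -0.20, Nkx3-2 A_51_P200204 at -0.19 and Trps1 A_52_P185876 at 0.024. The pairs of Sox6 A_52_P475356 and A_52_P394652 with A_52_P282171 were then at -0.082 and -0.19. The scanner software's ratio and the deposited value table gave -0.092 for Sox6 A_52_P282171, -0.013 for Sox9 A_52_P577484 and -0.0046 for Wwp2 A_52_P110999. The scanner ratio gave pair values of 0.030 for Sox5, 0.21 for Sox6 A_52_P25089 and 0.086 for Nkx3-2, and wild-type ratios to the reference of 2.56 for Sox5, 6.00 for Sox6 and 2.91 for Nkx3-2. Without background correction Sox9 A_52_P577484 was at -0.010 and Wwp2 A_52_P249385 at -0.020. Cy5 alone gave 0.013 for Trps1 A_52_P185876. Array weights gave -0.00095 for Sox9 A_52_P577484 and -0.11 for Wwp2 A_52_P81214.

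Leaving out single arrays turned 7 member differences in sign at least once: -0.027 to 0.23 for Sox6 A_52_P282171, -0.044 to 0.071 for Sox9 A_52_P577484, -0.014 to 0.067, -0.041 to 0.084, -0.11 to 0.21 and -0.0070 to 0.048 for Wwp2 A_52_P421805, A_52_P110999, A_52_P81214 and A_52_P249385, besides -0.18 to 0.034 for Trps1 A_52_P185876. Pair values that turned ran over -0.040 to 0.12, -0.038 to 0.12 and -0.11 to 0.077 for Sox6 A_52_P475356, A_52_P394652 and A_52_P25089, -0.21 to 0.076 for Wwp2 A_52_P81214 and -0.16 to 0.092 for Trps1 A_51_P240384. Without wild type 1 and knockout 1 together, a setting chosen after seeing the data, Sox6 A_52_P282171 was at -0.0065, Wwp2 A_52_P81214 at -0.094, and 9 other Sox genes were lower in knockout.

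With the replicate number as a block, 1 probe passed on the whole array, Sox9 A_52_P577484 was at -0.0079 and Wwp2 A_52_P249385 at -0.014. The numbers do not pair the samples: 3 of 9 same-numbered pairs had a correlation over 0.1, and 2 correlated best with their own number. The count of 4 probes past the threshold was 1 with the scanner ratio, the value table, median centring, slide or position as a block and without wild type 1 and knockout 1, 2 with Cy5 alone and 11 with array weights. Single omissions gave 1 to 9, with 9 without wild type 8 and 1 or 2 without wild type 2, 3, 5 or 6 or knockout 2, 3, 6, 7, 10, 11, 12 or 13. The number of genes lower in knockout, 4 among other Sox genes and 1 in the Nedd4 family, was 7 and 5 with position as a block and 8 and 0 with the scanner ratio. Leaving out single arrays gave 3 to 9 lower among the other Sox genes, 9 of them without wild type 1. Dim probes, such as Sox5 A_51_P500318, are limited by their low signal over background.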
